A study of Mus musculus with 4 samples.

Results

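The MC3T3-E1 line, an established pre-osteoblast line derived from mouse calvaria, was compared after 6 and after 3 days of culture in normal medium, with no osteogenic supplement on either day. The comparison rests on 2 of the 4 arrays of the series, labelled Control day 3 and Control day 6, with 1 array on each side. Every named gene entered it: 18193 genes had a probe set with 1 gene symbol, and 11736 of them were measured, meaning above a floor signal of 57.8 on at least 1 of the 2 arrays. A difference is always the log2 scaled signal at day 6 minus that at day 3, so that 1 means 2-fold higher at day 6.

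The normal medium was MEM alpha with 10% fetal bovine serum at 37°C. The other 2 arrays came from cells kept for the same times in osteogenic medium, which adds to the same base and serum beta-glycerophosphate (10 mM) and ascorbic acid 2-phosphate (150 µM). They serve here as a side by side reading of days 3 and 6 that shares no array with the normal medium. Cells, strain (C57BL/6) and tissue were the same in all 4 groups, and the line is a single immortal line, so the values describe these cultures. With 1 array a group there is no replicate error, and no p-value is given for any difference.

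In a plated culture that is not passaged, cells divide until they crowd each other, and then leave the cell cycle. Genes of DNA replication are switched on by E2F factors late in G1, while genes of mitosis are switched on later by the MuvB, B-MYB and FOXM1 complexes. Immediate-early genes such as Fos and Egr1 are transcribed within minutes of a serum, growth factor or stress signal and their RNA is short-lived, so their level reads the state of the culture at the time of harvest. Pre-osteoblasts that stop dividing can go on to lay down a collagen matrix and, with ascorbate and a phosphate source, to mineralise it.

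Days 3 and 6 in normal medium were close to each other. The median difference over the 11736 measured genes was -0.01, with quartiles of -0.18 and 0.17. At 2-fold, 87 genes (0.741%) were higher and 87 (0.741%) were lower at day 6, against 442 (3.7%) higher and 313 (2.62%) lower of 11947 genes in osteogenic medium. At 1.5-fold, 475 genes (4.05%) were higher and 451 (3.84%) were lower in normal medium. Only 4 genes were 4-fold higher and 1 was 4-fold lower. The higher genes were led by immediate-early genes, and also included Dmp1, F13a1, Apod and Mmp13. The lower side had no such leading group at 2-fold, but 63 of 65 measured mitosis genes and 50 of 52 DNA replication genes lay below 0, where 52.3% of all measured genes did. A list is described here by such counts and by its median, with no test.

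The 2 normal medium arrays were alike in most controls. Each array had been scaled by the submitters to a trimmed mean of 500, the further scaling factors lay between 0.988 and 1.02, and the 2 normal medium arrays correlated at r = 0.986 over the 20849 probe sets above the floor (across probe sets, which are not independent replicates). The ratio of the 3′ to the 5′ control probe set of Actb was 1.23 at day 3 and 1.20 at day 6. The 18S rRNA 5′ control signal differed, at 9162 at day 3 and 5202 at day 6 in normal medium. In osteogenic medium it was 8250 and 746, so the osteogenic day 6 array, which every osteogenic value at day 6 rests on, stands apart. The part of this control in any result was not tested. All 9 hybridisation spikes were lower at day 6, by a median log2 difference of -0.22. The brightest genes shared this lean: of the 75 genes with a mean signal of 30000 or more, 96% lay below 0, against 50.6% of the 3219 genes under 250.

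**Figure D1:**
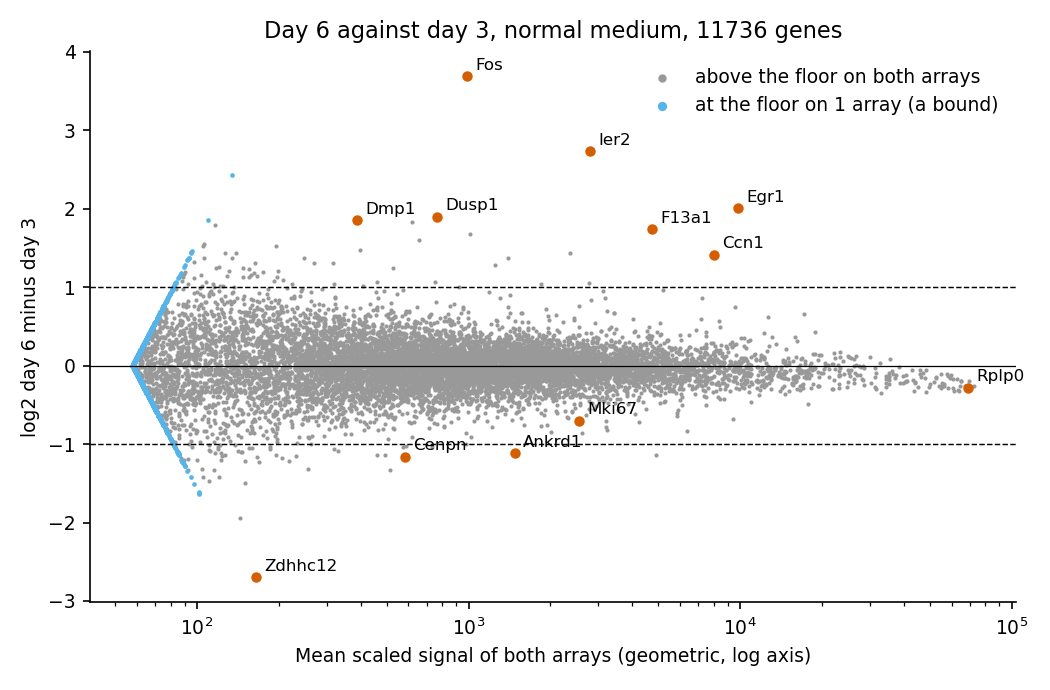
Each point is 1 of the 11736 measured genes, with its mean scaled signal on both normal medium arrays (horizontal, log axis) and its log2 difference, day 6 minus day 3 (vertical); dashed lines mark 2-fold, and blue points are genes at the floor on 1 array. Most genes past 2-fold are dim, Fos, Ier2 and Egr1 stand above the rest at higher signals, and the brightest genes lie below 0.

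Most genes past 2-fold were dim. Of the 87 higher genes, 65 were above the floor on both arrays and 22 carried only a bound, and of the 87 lower genes these numbers were 53 and 34. The median signal on the brighter array was 217 for the higher genes and 171 for the lower genes, against 697 for all measured genes. Among the 8861 genes that reached 4 times the floor on the brighter array, 38 were higher and 23 lower.

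Other probe sets of the same genes give the only repeat reading that the arrays hold, and they cover error of the probes, not of the cultures. Of 23 higher genes with a second measured probe set, 18 (78.3%) had the same sign there and 6 passed 2-fold there too. Of 25 lower genes, 16 (64.0%) had the same sign and 0 passed 2-fold. Over both directions the share was 70.8%, with a Wilson 95% interval of 56.8% to 81.8%, against 59.8% for all 5586 measured genes with a second probe set. It was 84.6% where the brighter array reached 4 times the floor and 54.5% where it did not. The SD of the disagreement between 2 probe sets of the same gene, divided by the square root of 2, was 0.29. This was taken as the error of 1 probe set, so a single difference under about 0.29 is within 1 SD of probe error.

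On the higher side, the 3 largest differences among genes with no contrary probe set were those of Fos, Ier2 and Egr1, all immediate-early genes. Fos, the partner of Jun proteins in AP-1, had a scaled signal of 274 at day 3 and 3545 at day 6 in normal medium, and 700 and 5662 on the same days in osteogenic medium. Both day 6 arrays were thus above both day 3 arrays, and Fos was 13-fold higher in normal medium (log2 difference 3.70). No second probe set of Fos was named here.

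Ier2, a nuclear immediate-early regulator, read 1089 and 7246 in normal medium and 1692 and 7560 in osteogenic medium, a 6.66-fold difference in the former. Egr1, a zinc finger factor induced by serum, read 4902 and 19788 in normal medium and 9237 and 20323 in osteogenic medium, which is 4.04-fold and a log2 difference of 2.01. Junb, a Jun family member of AP-1, read 329 and 1172, then 625 and 1934, with a difference of 1.83. For all 3 genes, as for Fos, the day 6 signals of both media exceeded the day 3 signals of both.

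Egr2, a relative of Egr1, had a difference of 1.44, from 1437 to 3899, and its second probe set gave 1.62. In osteogenic medium Egr2 read 2480 at day 3 and 4422 at day 6. Csrnp1 was the sixth of these factors that were 2-fold higher, but dim, at 79.6 and 164. Of the 36 measured transcription factors on the immediate-early list, 22 lay above 0 (47.7% of all genes did). On this list 6 were 2-fold higher and 1 was 2-fold lower, against 0.741% of all genes each way. The list median was 0.13.

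The list was not uniform. Jun differed by 0.16, Myc by -0.20 and Srf, the serum response factor itself, by -0.66, with a second Srf probe set at -0.85. Fosl1, another AP-1 partner, went from 178 at day 3 to below the floor at day 6, at least 3.07-fold lower, while in osteogenic medium it read 143 and 397. Atf3, a stress-induced factor, read 213 and 142 in normal medium and 211 and 512 in osteogenic medium. Over all 59 measured probe sets of the list, 30 lay above 0 and 29 below, so the list as a whole had no lean of probe sets.

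Immediate-early genes that are not transcription factors formed a list of their own. Dusp1, a phosphatase that turns off MAP kinases, read 396 and 1477 in normal medium and 462 and 2153 in osteogenic medium (3.73-fold in normal medium). Nfkbiz, a nuclear IkB protein, read 62.6 and 217, then 139 and 511, and both its other probe sets were higher at day 6 too, the next brightest by 1.43. Zfp36, which binds AU-rich RNA and shortens its life, read 564 and 1799, then 616 and 1070.

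Ccn1, a matrix-bound signalling protein and target of YAP, read 4914 and 13101 in normal medium and 7418 and 11203 in osteogenic medium. Its 3 other probe sets were all higher at day 6, the next brightest by 1.36. Arc (239 and 664) and the phosphatase Dusp5 (107 and 244) completed the 6 genes 2-fold higher among 39 measured, against 0.741% of all genes. Of the 39, 28 lay above 0, against 47.7% of all genes. Here 50 of 76 probe sets were above 0, against 46.3% of all probe sets of named genes. Ccn2, a relative of Ccn1 on the same list, was lower at day 6 by 0.34 (1567 and 1239, log2 difference -0.34), and Thbs1 differed by -0.22.

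Lists of genes downstream of these signals had medians nearer 0. Beside their counts, 47.7% of all genes lay above 0, and 0.741% were higher and 0.741% lower by 2-fold. The ERK feedback list, which shares members with the immediate-early lists, had 12 of 19 members above 0, 2 higher and 1 lower by 2-fold, and a median of 0.09, a median that turned to -0.03 under 1 of 12 other settings. The cAMP and CREB target list, which also shares members with them, had 9 of 14 above 0, 2 higher and 0 lower by 2-fold, and a median of 0.10. The YAP and TEAD target list, which holds Ccn1, had 15 of 34 above 0 and a median of -0.05. On that list Ankrd1, a titin-associated cofactor, was lower: it read 2177 and 1003 in normal medium and 2090 and 1132 in osteogenic medium, and its second probe set differed by -0.80. Thus Ccn1 and Ankrd1, on the same list, were past 2-fold in opposite directions.

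**Figure D2:**
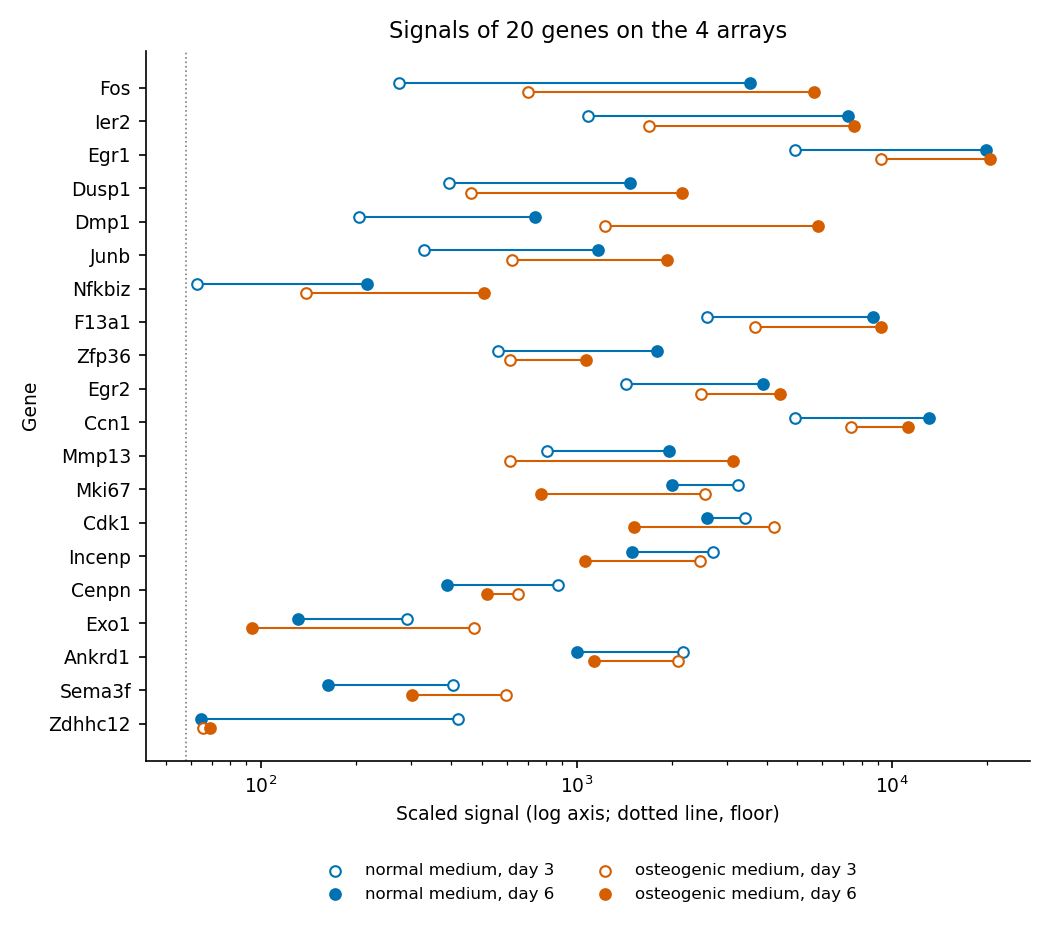
Scaled signals (log axis) of 20 genes on all 4 arrays, open circles for day 3 and filled circles for day 6, blue for normal and orange for osteogenic medium, 1 array each. Fos goes from 274 to 3545 in normal medium and from 700 to 5662 in osteogenic medium, whereas Zdhhc12 is high on 1 array alone, at 421.

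Among the higher genes outside the immediate-early lists were some that code for secreted proteins. Dmp1, an acidic bone matrix protein of late osteoblasts and osteocytes, read 204 and 739 in normal medium and 1229 and 5799 in osteogenic medium. Its difference was 1.85 in normal medium, and both its other probe sets were higher, the next brightest by 1.49. Even so, Dmp1 at day 6 in normal medium stayed below its level at day 3 in osteogenic medium.

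F13a1, the catalytic subunit of the transglutaminase factor XIII, read 2597 and 8691 in normal medium and 3672 and 9231 in osteogenic medium. Apod, a lipid-binding lipocalin that marks growth-arrested fibroblasts, read 870 and 2259, then 723 and 1786, and its second probe set gave 1.64 in normal medium. Mmp13, the collagenase of bone, read 804 and 1956, then 617 and 3141. For these 3 genes, too, each day 6 array lay above its own day 3 array by more than 2-fold in both media.

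Others were past 2-fold in normal medium alone. C1s1, a complement protease, read 1926 and 3993 in normal medium and 1232 and 1253 in osteogenic medium. Gadd45g, a growth arrest and stress gene, read 378 and 1144 in normal medium and 843 and 731 in osteogenic medium. Ackr4, a chemokine scavenger, read 649 and 1302, then 644 and 693, but its next probe set differed by 0.09. Whether the media differ for these genes was not tested.

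When the floor was raised to the 80th percentile, a signal of 700, 5851 genes were measured. Of these, 12 were past 2-fold on the higher side and 2 on the lower side. The 12 were Ier2, Fos, Egr1, F13a1, Egr2, Ccn1, Apod, Zfp36, Mmp13, Dusp1, C1s1 and Col15a1. Of the 12, 7 stand on an immediate-early list. These lists held 36 and 39 of the 11736 genes measured at the floor of 57.8. At the raised floor Fos, Zfp36 and Dusp1 carry only bounds, since their day 3 signals lay below it. Col15a1, a basement membrane collagen, read 1291 and 2656 in normal medium. The 2 lower ones were Ankrd1 and Malat1. Malat1, a nuclear noncoding RNA named here after its values were seen, read 7248 and 3300 in normal medium and 3988 and 3597 in osteogenic medium, and 5 of its 6 other probe sets were lower and 1 higher.

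Genes of mitosis and of DNA replication were lower at day 6 as groups, by small steps. Of 65 measured mitosis and kinetochore genes, 63 lay below 0, with a list median of -0.49. Of the 65, 18 were lower by 1.5-fold and 1 by 2-fold, against 3.84% and 0.741% of all genes. Counted by probe sets, 117 of 127 were below 0, against 53.7% of all probe sets of named genes. In bulk RNA, fewer dividing cells and less of these RNAs in each cell cannot be told apart.

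Mki67, the Ki-67 proliferation marker, read 3255 and 2005 in normal medium and 2555 and 769 in osteogenic medium, a difference of -0.70 in the former. Top2a, the topoisomerase of dividing cells, read 5076 and 3308, then 4812 and 1543. Cdk1, the kinase that drives entry into mitosis, read 3407 and 2582, then 4206 and 1523. All 3 genes were lowest on the osteogenic day 6 array, and the normal day 6 array came next.

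Incenp, of the chromosomal passenger complex, read 2696 and 1496 and had 2 other probe sets that were also lower, the next brightest by only -0.26. Birc5, survivin, of the same complex, read 2933 and 1848. The only mitosis gene past 2-fold was Cenpn, a reader of centromeric nucleosomes, with signals of 871 and 390 and a second probe set at -0.68. In osteogenic medium Cenpn differed by -0.33, from 654 to 521, while its second probe set read 590 and 275 there. The 2 members above 0 were Cenpk (0.05) and Pttg1 (0.02).

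DNA replication genes were lower by a smaller median of -0.26, with 50 of 52 below 0. Of the 52, 7 were lower by 1.5-fold and 2 by 2-fold, against 3.84% and 0.741% of all genes. Counted by probe sets, 87 of 94 were below 0. Exo1, a 5′ to 3′ exonuclease, read 289 and 131, and its second probe set differed by -0.29. Tyms, thymidylate synthase, read 127 at day 3 and was below the floor at day 6, at least 2.20-fold lower. Mcm10 (362 and 194) and Pole (642 and 367), which act at the origin and the fork, were lower by less than 2-fold.

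Abundant replication genes differed by less than 1.5-fold on the probe set used. Pcna, the sliding clamp, read 11250 and 9567 (-0.23), Mcm2 of the helicase read 1856 and 1633 (-0.18) and Rrm2, the ribonucleotide reductase subunit, read 2894 and 2247 (-0.36). A second probe set of Mcm2 gave a larger difference, from 2380 to 1474 (-0.69). Only Gins3 (0.20) and Fen1 (0.19) lay above 0.

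In osteogenic medium the same lists were lower by more, with medians of -1.57 for mitosis and -1.10 for replication. There 54 of 65 and 32 of 52 genes were 2-fold lower, against 2.62% of all genes. Rrm2 there went from 3299 to 735. These values rest on the osteogenic day 6 array, which stood apart in its 18S rRNA 5′ control signal (746). The difference between the media was not tested, since each rests on 1 array a day.

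Both cell cycle medians kept their sign under all 12 other settings of scaling, floor and probe set choice, from -0.49 to -0.41 for mitosis and from -0.28 to -0.19 for replication. Cyclins and CDKs of G1 had 19 of 21 members below 0 with a median of -0.15. Ccnd1, cyclin D1, read 7244 and 6064. A histone list had no lean, with 3 of 6 measured members above 0, 3 below and a median of -0.01. On the histone list H1f2 differed by 0.90 and H2ax by -0.40. The list of CDK inhibitors and arrest genes had no lean, with 13 of 31 members above 0 and a median of -0.04 that turned to 0.03 under 1 setting. On it, Cdkn1a (p21) differed by -0.35, from 5936 to 4668, and Cdkn1b (p27) by 0.19, from 4228 to 4819. Ribosome biogenesis and MYC targets had 40 of 44 members below 0 and a median of -0.18, with Srm, spermidine synthase, at 4087 and 2934.

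**Figure D3:**
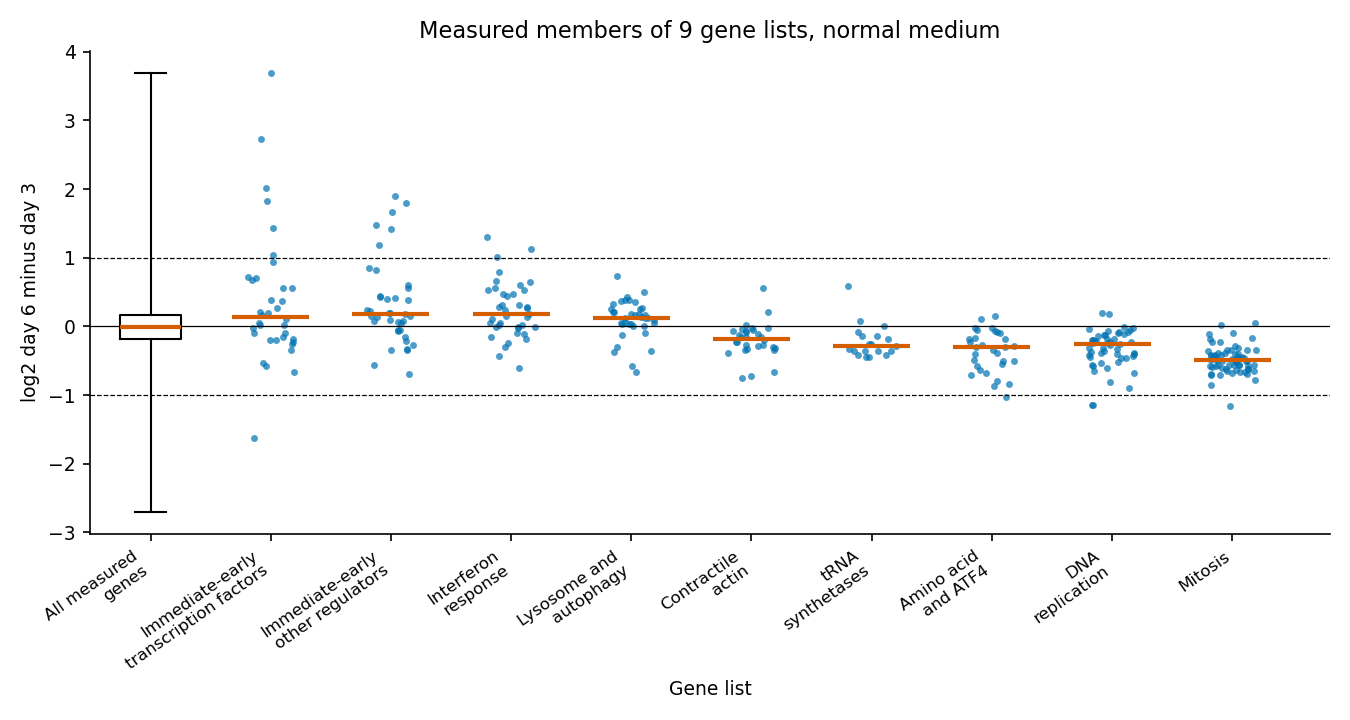
Log2 differences, day 6 minus day 3 in normal medium, of the measured members of 9 gene lists (points, spread sideways for legibility, orange bars for medians), beside all 11736 measured genes (box for quartiles, whiskers to the lowest and highest). The mitosis list lies lowest, with a median of -0.49 and 63 of 65 members below 0, while the immediate-early lists have medians of 0.13 and 0.19 and long upper tails.

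Promoters are shown for 5 genes of these groups, because the groups held members that moved together and their promoter letters can be read beside the values. They are RefSeq sequences of build GRCm38.p6, from 250 bases before to 50 bases after the annotated start, 5′ to 3′ in the direction of the gene. Capitals mark matches on either strand to TGACGTCA (cAMP response element) or GCGGGGGCG (EGR) in the first 2 genes, and to TTTGAA (the cell cycle homology region, CHR), CCAAT (NF-Y) or TTTNGCGC (E2F) in the other 3. Matches of different motifs did not overlap in these windows. Dusp1 lies at chr17:26508423-26508722 on the minus strand and Zfp36 at chr7:28379179-28379478 on the minus strand. Mki67 lies at chr7:135716330-135716629 and Cdk1 at chr10:69352863-69353162, both on the minus strand, and Cenpn at chr8:116921490-116921789 on the plus strand.
Dusp1: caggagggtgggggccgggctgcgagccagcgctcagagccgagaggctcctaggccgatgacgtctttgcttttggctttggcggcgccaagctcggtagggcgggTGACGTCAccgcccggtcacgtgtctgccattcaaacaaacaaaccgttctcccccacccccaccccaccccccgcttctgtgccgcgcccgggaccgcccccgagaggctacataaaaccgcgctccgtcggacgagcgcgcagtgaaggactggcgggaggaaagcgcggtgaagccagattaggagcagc
Zfp36: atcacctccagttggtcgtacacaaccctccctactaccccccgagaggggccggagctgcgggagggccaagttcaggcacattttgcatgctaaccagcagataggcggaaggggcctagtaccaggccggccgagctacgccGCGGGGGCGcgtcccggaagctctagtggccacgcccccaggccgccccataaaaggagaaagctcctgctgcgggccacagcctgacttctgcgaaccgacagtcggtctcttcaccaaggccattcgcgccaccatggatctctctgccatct
Mki67: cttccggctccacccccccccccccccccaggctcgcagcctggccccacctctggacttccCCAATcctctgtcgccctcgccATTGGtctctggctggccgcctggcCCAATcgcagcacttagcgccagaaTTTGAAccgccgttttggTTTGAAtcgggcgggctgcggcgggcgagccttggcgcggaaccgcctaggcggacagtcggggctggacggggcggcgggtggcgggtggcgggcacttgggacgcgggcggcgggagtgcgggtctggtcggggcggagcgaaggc
Cdk1: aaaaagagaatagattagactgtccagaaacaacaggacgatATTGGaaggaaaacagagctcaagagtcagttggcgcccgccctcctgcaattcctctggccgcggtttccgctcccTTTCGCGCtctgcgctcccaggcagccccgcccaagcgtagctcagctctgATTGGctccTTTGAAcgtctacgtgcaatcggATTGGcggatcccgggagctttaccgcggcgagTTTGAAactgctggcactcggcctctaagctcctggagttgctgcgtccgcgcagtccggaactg
Cenpn: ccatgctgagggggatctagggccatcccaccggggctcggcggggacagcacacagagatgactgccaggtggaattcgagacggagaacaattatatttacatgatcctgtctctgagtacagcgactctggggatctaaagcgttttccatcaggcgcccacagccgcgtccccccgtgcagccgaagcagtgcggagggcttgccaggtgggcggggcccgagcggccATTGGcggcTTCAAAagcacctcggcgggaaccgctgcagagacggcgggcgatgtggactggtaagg

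The window of Dusp1 held 1 cAMP response element, which 1.88% of the first windows of 27025 genes held, and that of Zfp36 held 1 EGR motif, which 2.92% held. Among immediate-early transcription factors with a window, 8 of 25 held the EGR motif and 0 of 25 the cAMP response element. Among the other immediate-early genes, to which Dusp1 and Zfp36 belong, 3 of 27 held each of these motifs. The 2 forms of the serum response element that were searched were in none of these 25 windows nor in the 27 windows of the other immediate-early genes, and they were in 0.0777% and 0.0592% of all windows. Absence says only that these letters are not in these 300 bases. TGANTCA, the AP-1 motif, was in 4 of the 27 and 0 of the 25 windows (7.93% of all).

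The mitosis and replication lists differed in their letters. TTTGAA was in 37 of 54 mitosis windows (68.5%) and in 6 of 43 replication windows (14%), against 18.1% of all windows. CCAAT was in 40 of 54 and 24 of 43, against 37.9%. TTTNGCGC was in 3 of 54 mitosis and 10 of 43 replication windows, against 1.38%, and TTCGAA, the other CHR form, was in 6 of 54 and 3 of 43, against 1.57%. Mki67 and Cdk1 each held TTTGAA in 2 places and CCAAT in 3, and Cdk1 held TTTNGCGC in 1. A match is a description of letters, and no test of the lists' promoters was run.

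Genes of the amino acid response were lower at day 6 in normal medium and higher in osteogenic medium. These genes are switched on by ATF4 when amino acids run short or the endoplasmic reticulum is stressed. Of 31 measured members, 29 lay below 0 (52.3% of all genes did), with a median of -0.31. Of the 31, 7 were lower by 1.5-fold and 1 by 2-fold, against 3.84% and 0.741% of all genes. Counted by probe sets, 64 of 70 were below 0. In osteogenic medium the median was 0.71 and 32 of 35 measured members lay above 0, where 49.9% of all genes did. Whether the media differ was not tested.

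Asns, asparagine synthetase, read 8505 and 4782 in normal medium and 7098 and 11236 in osteogenic medium. Slc7a1, a carrier of arginine and lysine, read 3525 and 1940, then 2410 and 3346, and its 2 other probe sets were lower too in normal medium. Trib3, a pseudokinase, read 840 and 414, then 520 and 4609, with a second probe set at -0.76 in normal medium. In each of these 3 genes the normal medium array at day 3 was above that at day 6, and the osteogenic arrays stood in the reverse order.

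Chac1, which degrades glutathione, read 935 and 541, then 672 and 2194. Aldh1l2 and Mthfd2, of mitochondrial folate metabolism, differed by -0.70 and -0.63. Atf4 itself read 6061 and 5797, a difference of -0.06, and Ddit3, which encodes CHOP, read 1279 and 1423 (0.15). Ddit3 and Nupr1 (0.11) were the only members above 0.

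The tRNA synthetases, several of which are ATF4 targets, had 16 of 19 members below 0 and a median of -0.28, with Aars at 6152 and 4507. Their median in osteogenic medium was 0.37. Genes of the endoplasmic reticulum did not share this order: 26 of 35 folding genes lay above 0 with a median of 0.14, and Hspa5, the chaperone BiP, read 17554 and 19524. NRF2 antioxidant genes had 24 of 32 below 0 and a median of -0.18. All 4 medians kept their sign under the 12 other settings.

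**Figure D4:**
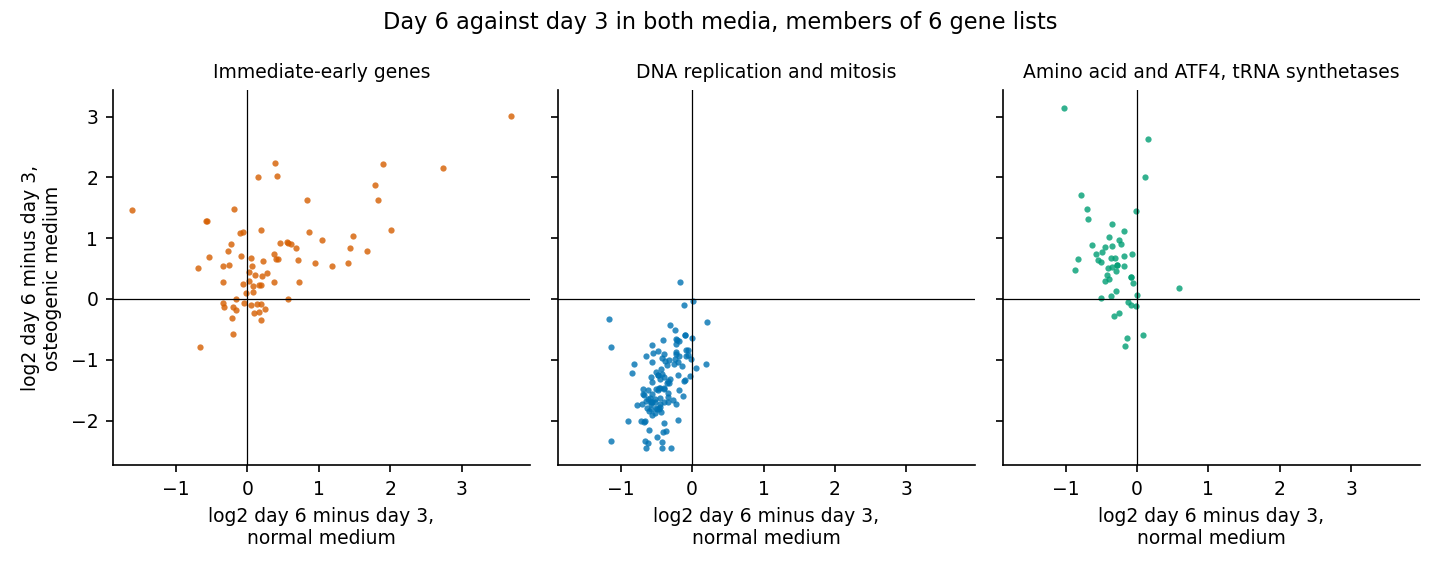
Each point is a measured gene, with its log2 difference, day 6 minus day 3, in normal medium (horizontal) and in osteogenic medium (vertical), for immediate-early genes (left), DNA replication and mitosis genes (middle) and amino acid response and tRNA synthetase genes (right). Cell cycle genes lie low on both axes and lower on the osteogenic one, and most amino acid response genes lie below 0 in normal medium and above 0 in osteogenic medium.

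Bone genes had no common direction. Osteoblast markers of the labelled cell type were present, several of them among the brightest genes: Col1a1, the main collagen chain of bone, read 60659 and 49645, Sparc 61257 and 55778, Cdh11 22336 and 24183 and Sp7, the osteoblast factor osterix, 574 and 640. Of the 10 measured lineage markers 3 lay above 0, with a median of -0.13 that was -0.01 after quantile normalization. Runx2, Spp1 and Bglap were not named by a probe set with 1 symbol in the table used here.

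Alpl, the phosphatase that frees phosphate for mineral, read 815 and 540 in normal medium and 2394 and 1756 in osteogenic medium. Ibsp, bone sialoprotein, read 386 and 255 in normal medium and 4468 and 11063 in osteogenic medium, and its second probe set differed by -0.55 in normal medium. Neither was 2-fold lower, and both stayed far under their osteogenic levels. Of 15 measured mineralisation genes, 7 lay above 0 (47.7% of all genes did) and 2 were 2-fold higher (0.741% of all genes were). The 2 were Dmp1 and Cpz, a carboxypeptidase whose day 3 signal was below the floor. The list median of -0.14 turned to 0.06 after quantile normalization.

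Collagen chains split evenly, with 14 of 29 above 0 and a median of -0.05 that changed sign under 9 of 12 settings. Col1a1 and Col1a2 (differences of -0.29 and -0.32) lie in the range of signals where nearly all genes were lower at day 6. The same holds for Rplp0 (-0.28), Eef1a1 (-0.31) and Acta2 (-0.33, from 48819 to 38864). Both other probe sets of Acta2 were higher at day 6 but dim. They read 85.3 and 177, and 1.25 (below the floor) and 117. Cytosolic ribosomal proteins had 35 of 38 below 0 and a median of -0.19, which was -0.0028 after quantile normalization. Contractile actin genes had 27 of 30 below 0 and a median of -0.18, and -0.07 after quantile normalization. On this list Tgfb1i1 (Hic-5), a focal adhesion protein, read 5422 and 3295 and Tagln 10881 and 10696.

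Interferon-induced genes leaned higher. Of 39 measured members 27 lay above 0 (47.7% of all genes did) and 3 were 2-fold higher (0.741% of all genes were), with a median of 0.18. Of 54 probe sets 39 lay above 0, against 46.3% of all probe sets of named genes. The summed signal of the list was not higher at day 6, at 90456 and 87569. Gbp6, a guanylate-binding protein, read 201 and 495 in normal medium and 108 and 480 in osteogenic medium, with a second probe set at 1.31. Ifit3 (133 and 290) and Oasl2 (85.7 and 174) were dim. Ifit2 went the other way, by -0.61.

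Lysosome and autophagy genes had 30 of 37 members above 0 (47.7% of all genes were) and a median of 0.13. Neu1, the lysosomal sialidase, read 308 and 514, and Ctsb, a cysteine protease, read 16204 and 21796. The factors Tfeb (-0.66) and Ulk1 (-0.57) of the same list lay below 0. Antigen presentation genes had 7 of 9 above 0, and 15 of 17 probe sets. H2-D1, a class I chain, read 2789 and 3656, and its 4 other probe sets were all higher.

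Genes of FGF, PDGF and VEGF signalling leaned to the higher side as well. Of these, 16 of 22 lay above 0 (47.7% of all genes did), with a median of 0.15. Other growth factor lists varied: 18 of 27 genes of BMP signalling lay above 0, 9 of 18 of the IGF axis and 7 of 22 of TGF-beta and activin signalling. Met, the receptor of hepatocyte growth factor, read 176 and 327 in normal medium and 169 and 172 in osteogenic medium. Pdgfra read 4183 and 6096, but its 2 other probe sets split, 1 in each direction. Igf1 read 5855 and 8034 in normal medium, with all 3 other probe sets higher, and 4705 and 2040 in osteogenic medium. Kitl, on the lower side, read 377 and 241, with both other probe sets lower.

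The lower genes past 2-fold were mostly single dim genes. Zdhhc12, a palmitoyltransferase, had the largest difference, -2.70 (6.49-fold lower), but its signals were 421 at day 3 and 64.8 at day 6 in normal medium and 65.4 and 69.2 in osteogenic medium. The normal day 3 array alone was high, and no second probe set was named here. Zdhhc14, another of this family and named after its values were seen, stood at the other end at 2.43, from below the floor to 313, but its second probe set differed by -0.79. These 2 genes thus rest on 1 probe set each.

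Sema3f, a secreted guidance protein, was lower in both media: it read 405 and 163, then 598 and 300. Id3, an inhibitor of bHLH factors and a BMP target, read 1045 and 510 in normal medium and 2565 and 2136 in osteogenic medium. Inhbb, the activin beta B chain, read 172 and 64.3, with a second probe set at -0.19. Wnt4 read 223 and 108, with a second probe set at -0.65.

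Whrn, a scaffold protein, read 252 and 89.2, and Ntrk2, the receptor of BDNF, read 147 and 58.3. Among genes with only a bound, Dbil5 was at least 3.11-fold lower and Fitm1 at least 3.07-fold lower. On the higher side Utf1 was at least 3.61-fold and Ikbke, an IkB kinase, at least 2.59-fold higher. Both other probe sets of Whrn were lower too, the next brightest by -0.52. The other 5 of these genes lie within 4 times the floor, where the sign agreed between probe sets in 54.5% of genes past 2-fold.

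The genes past 2-fold in normal medium were also read in osteogenic medium. Of 80 higher genes measured in both media, 61 (76.3%) were above 0 in osteogenic medium and 16 were also 2-fold higher there, where 49.4% of the 11180 genes measured in both media were above 0. Of 75 lower genes, 36 (48.0%) were below 0 in osteogenic medium, 7 were 2-fold lower and 11 were 2-fold higher, where 50.6% of all were below 0. Of all 11947 genes measured in osteogenic medium, 3.7% were 2-fold higher and 2.62% were 2-fold lower. Whether the shares of 76.3% and 48.0% differ beyond the error of the cultures was not tested. Across the 11180 genes the differences of the 2 media correlated weakly (Pearson's r = 0.20, Spearman's rho = 0.20), as a description over genes that are not independent replicates.

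Markers of blood, fat and vessel cells were mostly below the floor. Of 16 leukocyte and osteoclast markers 5 were measured, with Ptprc, Itgam and Acp5 below the floor on all 4 arrays, and of 11 adipocyte markers 3 were, with Adipoq, Fabp4 and Lpl below the floor. The 5 measured leukocyte and osteoclast markers, 3 above 0 and 2 below, included Lyz2 (337 and 526), Cd14 (144 and 155) and Laptm5 (97.9 and 87.2). Cebpa, at 834 and 883, was the brightest part of the adipocyte sums given below. Of 13 endothelial markers 5 were measured, with Pecam1, Cdh5 and Tek below the floor. The signals of the 16 leukocyte and osteoclast markers summed to 1075 at day 3 and 1243 at day 6, those of the 11 adipocyte markers to 1015 and 1164 and those of the 13 endothelial markers to 758 and 752, against 268101 and 235828 for the 10 osteoblast markers. Smooth muscle and pericyte markers were mostly above it, with 8 of 11 measured and summed signals of 63520 and 52990, and with Myh11 below the floor on all 4 arrays. Chondrocyte markers were mostly measured too (10 of 15, summing to 4977 and 4365), but 4 of those measured were at the floor on 1 array. So were neural and glial markers (8 of 12, summing to 3624 and 4855), again with 4 at the floor on 1 array. S100b alone gave 2118 and 3773 of the neural and glial sums. Of epithelial markers 7 of 15 and of skeletal muscle markers 6 of 14 were measured. Their part in any result was not tested.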

How the data were processed

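The series measured RNA of MC3T3-E1 cells on Affymetrix Mouse Genome 430 2.0 arrays, 1 array a group. Per the labels' protocols, total RNA was taken from a silica column kit with DNase, checked for integrity, and 500 ng were turned into labelled cRNA with a 3′ in vitro transcription kit. For every probe set the authors deposited a linear intensity, and each array had a mean of 500 once the outer 2% of values at each end were left out. How probes were summarised is not given in the sources used here, and no detection calls came with the values. Scaling arrays to 1 mean removes any difference in RNA per cell.

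Of 45101 probe sets, 64 were controls, 34945 had 1 gene symbol in GEO's platform annotation, 932 had several and 9160 had none; probe sets with several or no symbols were left out. Of the named ones, 34754 matched RefSeq (GRCm38.p6) by Entrez ID and 0 symbols changed. Arrays were brought to the same 75th percentile (factors 0.988 to 1.02), values under the pooled 50th percentile (57.8) were set to that floor, and log2 was taken. A gene is its brightest probe set; 10662 genes were above the floor on both arrays, 501 only at day 6 and 573 only at day 3, and the last 2 sets carry bounds. A printed signal is scaled but not floored, and "below the floor" means under 57.8. Number of arrays and floor limit the precision; without replicates no p-value was computed.

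Genes and the 67 lists were chosen with earlier results of these data known. Named genes are the 20 highest and lowest differences with no contrary probe set, the 10 largest bounds each way, up to 4 extreme members of each list, a set of usual markers, and further list members named for their role or direction; these, Malat1 and Zdhhc14 were added after their values were seen. Python 3.11.15, numpy 2.4.6 and pandas 2.3.3 were used, and the code was tested on simulated data. Alternatives for scaling, floor, filter, probe set choice and threshold were tried; removal of a brightness trend was chosen after seeing the data.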

Additional observations from a re-analysis of the deposited data

Results flagged for a closer look

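The 6 genes that follow are those among the named genes that were past 2-fold in both media in opposite directions. All 6 were lower at day 6 in normal medium and higher in osteogenic medium, with no contrary probe set in normal medium. Among all genes measured in both media, 11 were 2-fold lower in normal and 2-fold higher in osteogenic medium, and 1 was the reverse. None of these differences between media was tested, since each medium has 1 array a day. Trib3 differed by -1.02 in normal and 3.15 in osteogenic medium, 4.17 log2 units apart. Fosl1, a bound in normal medium, differed by -1.62 and 1.47, 3.09 apart. Fahd2a, whose day 6 signal in normal medium was 58.0, just above the floor, differed by -1.28 and 3.81, 5.10 apart, and its day 3 signal in osteogenic medium was below the floor. Its other probe sets in osteogenic medium read 98.6 and 69.2, which is the contrary direction, and 60.5 and 102. Anxa8, an annexin, differed by -1.16 and 1.75 (2.91 apart), from 249 to 111 in normal medium and from 738 to 2479 in osteogenic medium. Steap1 differed by -1.14 and 1.39 (2.54 apart), from 731 to 331 and from 860 to 2261. Hoxa9 differed by -1.33 and 1.22 (2.55 apart) at signals of 183 or less. Its day 3 signal in osteogenic medium was 56.5, below the floor, so 1.22 and 2.55 are bounds.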

How the results depend on the processing

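The floor set the counts of genes past 2-fold. With the floor at the 40th percentile 209 genes were higher and 227 lower, at the 60th 36 and 23, at the 80th 12 and 2, and with neither floor nor filter 2016 and 2029. With genes required above the floor on both arrays 65 were higher and 53 lower, with probe sets of a gene averaged 57 and 40, and at 1.5-fold 475 and 451. Scaling to a common median gave 115 higher and 68 lower, so 62.8% of these genes were higher against 50%, and moved the median of all genes to 0.06; quantile normalization gave 92 and 77, and removing the brightness trend 95 and 82. Of 800 list medians under other settings 705 stayed within probe error and 95 moved; no median of a list with 10 or more measured genes and at least 75% of them on 1 side changed sign. Among all other measured probe sets of genes past 2-fold, 49 of 67 (73.1%) had the same sign. No paired analysis was possible because each group has 1 array. Dim genes limit the comparison: a signal near the floor gives a bound, and 1 array a side cannot separate days from cultures. Leaving out an array was not possible for the same reason.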

Other observations

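Clock genes were not uniform. Nr1d1, the repressor REV-ERB alpha, read 96.5 at day 3 and 193 at day 6 in normal medium and 179 and 185 in osteogenic medium. Per2 read 97.7 and 171, then 184 and 138, and Dbp, a clock output factor, 127 and 207, then 138 and 158, with a second Dbp probe set at 0.68 in normal medium. Cry2 lay on the other side, at 223 and 154. Of 19 measured clock genes 8 lay above 0, with a median of -0.05 that changed sign under 2 of 12 settings. The labels do not give the hour of harvest.

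Txnip, an arrestin that follows glucose supply, read 2591 and 3328 in normal medium, with a second probe set at 0.48, and 1841 and 146 in osteogenic medium. Its relative Arrdc4 read 225 and 150 in normal medium and 226 at day 3 in osteogenic medium, where it was below the floor at day 6. Lum, lumican of the collagen matrix, read 13698 and 21592, then 29054 and 22707. Omd, osteomodulin, read 2722 and 4352, then 3880 and 3345. Both proteoglycans were thus higher at day 6 in normal medium and lower at day 6 in osteogenic medium, and the difference between the media was not tested.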
